A study of Homo sapiens with 16 samples.

Results

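A set of 9 genes of arginine and tryptophan metabolism were followed through the monocytes and macrophages of mouse mammary tumors: Slc7a2, Arg1, Odc1, Ass1 and Nos2 for arginine, and Ido1, Il4i1, Kynu and Kmo for tryptophan. They were chosen by name as enzymes and a transporter of these pathways and are 9 of the 32285 genes in the count tables. All 9 were present there. Their unique molecular identifiers (UMIs, 1 per captured transcript) were summed over the cells of each deposited cluster label and are given as counts per 1000000 UMIs of those cells (CPM). The assay reads the 3' end of transcripts, so a CPM is used here to compare 1 gene between groups of cells, not 2 genes with each other.

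Macrophages take up arginine through cationic amino acid transporters such as the one encoded by Slc7a2. Inside the cell arginase 1 (Arg1) splits it into ornithine and urea, and inducible nitric oxide synthase (Nos2) turns the same substrate into nitric oxide and citrulline, so the balance of these enzymes has long been used to describe macrophage states. Ornithine decarboxylase (Odc1) leads from ornithine to polyamines, and argininosuccinate synthase (Ass1) begins the return of citrulline to arginine. Tryptophan is consumed by indoleamine 2,3-dioxygenase 1 (Ido1) on the way to kynurenine, and by the secreted amino acid oxidase Il4i1. Kynurenine is processed by kynureninase (Kynu) and kynurenine monooxygenase (Kmo). Depletion of either amino acid by myeloid cells is known to restrain T cells.

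The tumors came from the mouse-derived syngeneic transplants LPA1-T22 (T22, sensitive to PARP inhibition) and LPA1-T127 (T127, resistant), both of which arose in mice that express an LPA1 receptor transgene in the mammary epithelium, and each of which is 1 line. Tumor chunks were placed in the mammary fat pad of female FVB mice, 6 weeks of age and immunocompetent, which received vehicle or the PARP inhibitor olaparib by mouth at 50 mg/kg each day. Tumors of each model treated for 4 or 8 days were captured in 4 short-term pools per model, and tumors of both models treated for 20 days, grown alone or in the same mouse, were captured in 8 long-term pools. In mice carrying both, T22 was transplanted 14 days before T127. Every pool mixed tumors of vehicle and olaparib mice, and no column used here ties a cell to its tumor, so treatment could not be compared. Pools are captures and are not known to hold separate tumors. Each model therefore counted as 1 sample, its pools are given as a range, no p-value was computed, and because the models were captured in separate pools, model and capture cannot be told apart.

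After shared barcodes were counted once, 25723 long-term cells, 15094 T22 cells and 8007 T127 cells were used, of which 15451, 7861 and 2200 carried 1 of 7 monocyte or macrophage labels. As deposited, pools held 34755906 to 55600377 UMIs. Medians per cell used were 9548 to 11720.5 in the long-term, 7730.0 to 8528 in the T22 and 22712 to 26017 in the T127 pools, and the long-term medians over all deposited cells, shallow copies included, were 3105 to 11712. Long-term pools 1 to 3 stood apart in that they shared barcodes (3939 between pools 1 and 2, 987 between 1 and 3 and 1082 between 2 and 3), whereas any other pair of pools shared at most 8. The macrophage marker list was detected in full, 7 of 7 genes, in the labels Macro-M2, Macro-MKI67, Macro-others and CD16-CDKN1C in every experiment, with summed levels of 5567 to 19241 CPM. The markers of CD14-IL1B were mixed and went against its monocyte name in the short-term pools. In T22 the macrophage list was at 1400.4, the conventional and mature dendritic cell lists at 944 and 892 and the monocyte list at 661 CPM, in T127 they were at 808, 723, 2610.2 and 1470.0 CPM, and in the long-term pools at 4477, 430.4, 1608 and 2401 CPM. CD14-PF4 had monocyte markers at 5137 and 5844 CPM beside neutrophil markers at 4022 and 1237 CPM. Both are called here by their deposited names only.

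**Figure D1:**
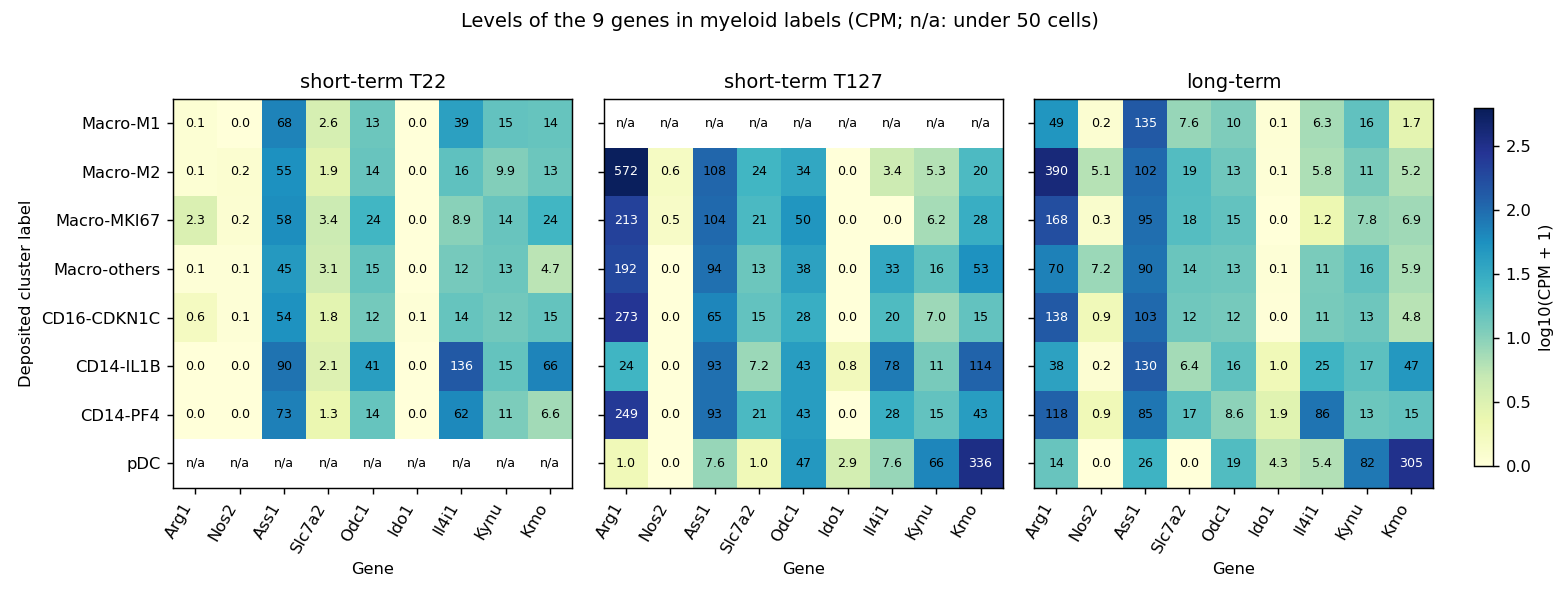
Levels of the 9 genes (CPM, color on a log10 scale of CPM + 1) in 8 myeloid labels, in the long-term, T22 and T127 pools; n/a marks labels of under 50 cells. Arg1 reached 572 CPM in Macro-M2 of T127 against 0.110 CPM in T22, Kmo was highest in pDC, and Ido1 stayed at or below 4.31 CPM in every square.

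Arg1 separated the short-term models more than any other of the 9 genes. In Macro-M2, the label with the highest Arg1 level in T127, the 4 T127 pools held 486, 598, 622 and 587 CPM, and the 4 T22 pools held 0, 0, 0.513 and 0 CPM. The pools of the models were far apart, with 8139 UMIs in 1174 T127 cells and 1 UMI in 670 T22 cells. The ratio was 5209 with an exact 95% counting interval of 935 to 205776, wide because it rests on that single UMI. The log2 difference of CPM + 1 was 9.01 ± 0.34 (SD over pools). Median depth was close in this label, 11286 UMIs per cell in T127 and 13221 in T22.

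The same direction was seen in the other macrophage labels. In CD16-CDKN1C the T127 pools held 367, 142, 325 and 226 CPM and the T22 pools 0 to 1.06 CPM, a ratio of 439 (237 to 920.3). In Macro-MKI67, the proliferating macrophages, levels were 130.0 to 259 CPM in T127 and 0 to 9.21 CPM in T22, where all 12 UMIs lay in 1 cell, and the ratio was 93.2 (53.1 to 181). In Macro-others the T127 pools spread from 45.2 to 347 CPM, with 34.3% of the UMIs in 1 cell, against 1 UMI in T22. The other labels were less even. In CD14-PF4 the T127 pools held 249, 0, 74.4 and 676 CPM and no T22 pool held a UMI, a level at least 62.7-fold higher against a floor of 3 counts over the group, but 1 cell held 58.0% of the T127 UMIs and the pool ranges touched at 0. In CD14-IL1B the T127 level of 24.2 CPM came mainly from pool 1 at 92.1 CPM, and 1 cell held 78.3% of it. Macro-M1 could not be compared, since T127 had 3 such cells beside 1203 in T22, where Arg1 was at 0.114 CPM. Over all 7 labels the T22 pools held 0.0611 to 1.11 CPM and the T127 pools 343 to 427 CPM.

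Marker levels that moved with the model in the same cells are given beside this difference. In Macro-M2 the summed monocyte list was 2527 CPM (pools 2298 to 2734) in T22 and 5994 CPM (5609 to 6281) in T127, with 7 of 7 genes detected in each, and the macrophage list was 11396 and 8104 CPM. The neutrophil list in this label was 32.1 CPM in T22 and 232 CPM in T127, with Ly6g at 0 in both. The epithelial list was 72.0 and 298 CPM, the mature dendritic list 55.0 (pools 17.3 to 97.4) and 351 CPM (277 to 456), the conventional dendritic list 125 and 83.8 CPM, and the proliferation genes 138 and 60.7 CPM. Their part in the Arg1 difference was not tested, except that without cells carrying at least 2 marker genes of mature dendritic cells, neutrophils, epithelium or T cells the T127 level of Arg1 in Macro-M2 was 677 CPM in 812 cells and the T22 level 0.126 CPM in 593 cells.

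**Figure D2:**
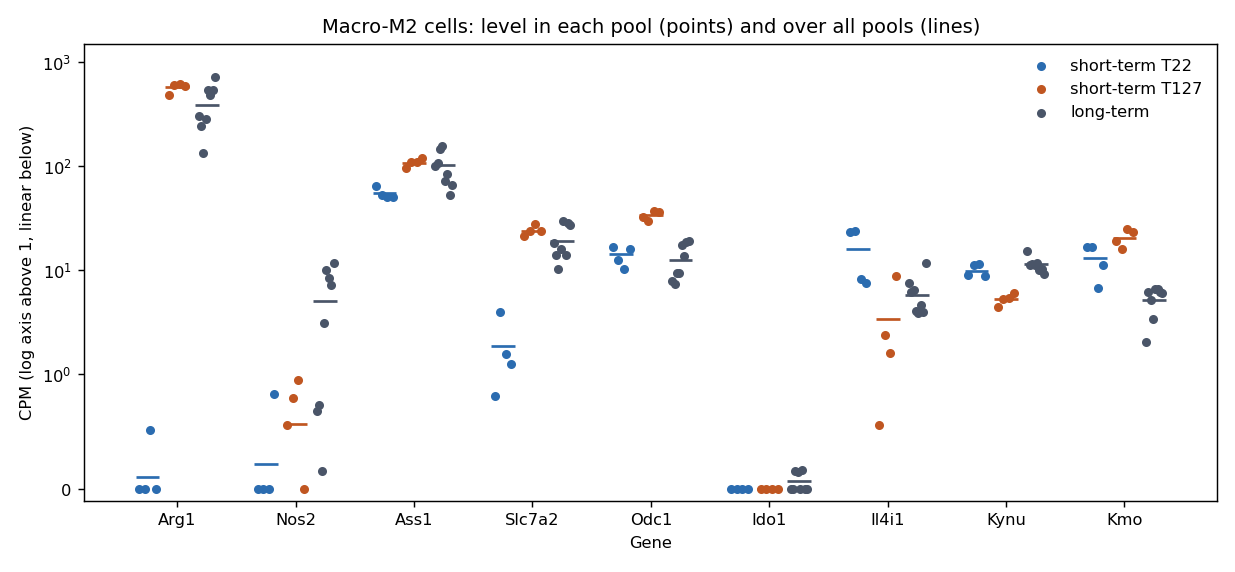
Levels of the 9 genes in Macro-M2 cells of each pool (points, CPM on an axis that is linear near 0 and logarithmic above) with the level over all pools of the experiment (line). T127 and T22 points do not overlap for Arg1, Slc7a2, Odc1, Ass1 and Kynu, and the long-term Arg1 points spread from 133 to 727 CPM.

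Slc7a2, which supplies arginine to these enzymes, moved in the direction of Arg1 but by less. In Macro-M2 the T22 pools held 0.807, 3.98, 1.54 and 1.24 CPM and the T127 pools 21.3, 23.5, 27.8 and 23.8 CPM. No T22 pool came near a T127 pool, and the ratio was 12.8 (7.90 to 22.3). Ratios in the other labels with separate pool ranges were 6.11 in Macro-MKI67, 4.32 in Macro-others, 8.31 in CD16-CDKN1C and 15.6 in CD14-PF4, the last on 1 UMI in T22 with an interval of 2.40 to 656. In CD14-IL1B the ratio was 3.38 (1.29 to 10.4) and the ranges overlapped. The Slc7a2 ranges also came to overlap in Macro-others and CD16-CDKN1C without cells carrying marker genes of other cell types, where the log2 differences went from 1.81 to 1.55 and from 2.51 to 1.44. Slc7a2 was not restricted to myeloid cells: in the fibroblast label i_CAF it was at 32.4 CPM in T22, above its T22 macrophages, and at 23.9 CPM in T127, where its pool range overlapped that of Macro-M2.

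Odc1, the entry to polyamine synthesis, was higher in T127 by a smaller and similar factor in the 4 larger labels. In Macro-M2 the T22 pools held 16.5, 12.4, 10.3 and 16.1 CPM and the T127 pools 32.1, 29.5, 36.6 and 36.4 CPM. The groups did not overlap, and the ratio was 2.39 (1.96 to 2.92). It was 2.07 in Macro-MKI67, 2.61 in Macro-others and 2.42 in CD16-CDKN1C, and in CD14-IL1B it was 1.05 (0.797 to 1.38), with pools of 28.9 to 52.0 CPM in T22 and 26.5 to 73.6 CPM in T127 that overlapped. Because these ratios lie near 2, leaving out 1 of several pools took Odc1 below 2-fold in 3 labels (log2 differences of 0.90 to 1.00 against 1.02 to 1.33 with all pools). In cells outside the myeloid labels of the same pools Odc1 was at 53.6 and 54.0 CPM in NK cells (T22 and T127), at 20.2 and 21.3 CPM in i_CAF and at 38.3 and 56.9 CPM in central memory CD4 T cells. The malignant clusters had 15.5 and 30.3 CPM in T22 and 182 and 223 CPM in T127. The part of RNA from malignant cells in the macrophage difference was not tested.

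Ass1, the enzyme that recovers arginine from citrulline, was present in all monocyte and macrophage labels. In the compared labels it ran from 45.4 to 89.7 CPM in T22 and from 65.0 to 108 CPM in T127. It was about 2-fold higher in T127 in Macro-M2, Macro-MKI67 and Macro-others. Macro-M2 pools held 65.0, 53.1, 50.8 and 50.8 CPM in T22 and 95.6, 109, 110.2 and 119 CPM in T127. The pools did not overlap, with a ratio of 1.96 (1.77 to 2.17). Ratios were 1.79 in Macro-MKI67 and 2.08 (1.79 to 2.41) in Macro-others, where the difference fell below 2-fold when T22 pool 1 or T127 pool 2 or 3 was left out (log2 0.96, 1.00 and 0.98) and most without cells carrying marker genes of other types (0.61). In CD16-CDKN1C the ratio was 1.21 (0.999 to 1.46) with overlapping pool ranges, and in CD14-IL1B the levels were 89.7 and 93.4 CPM.

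Nos2 was near the limit of detection in short-term macrophages of both models. Macro-M2 held 2 UMIs in T22 and 8 in T127 (0.220 and 0.562 CPM), and the other compared labels held 0 to 2 UMIs in each model, too few for a fold. The highest Nos2 level of each experiment lay in endothelial cells, at 14.6 CPM in T22, 69.8 CPM in T127 and 43.8 CPM in the long-term pools. The assay therefore captured Nos2 transcripts in these pools.

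Of the tryptophan enzymes, Ido1 was almost absent from the macrophage labels. Short-term macrophages and monocytes held 1 Ido1 UMI in T22 (CD16-CDKN1C) and 2 in T127 (CD14-IL1B), and 15451 long-term cells held 16, or 0.112 CPM. In the label pDC, whose 4 plasmacytoid dendritic cell markers were all detected at 3840.3 to 9650.4 CPM, Ido1 reached 2.85 to 4.31 CPM, on 4 UMIs in the long-term pools.

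Il4i1 was the least even of the members. In Macro-M2 the T22 pools held 23.0, 23.5, 8.22 and 7.43 CPM and the T127 pools 0.554, 2.37, 1.58 and 8.75 CPM. T127 pool 4 lay above 2 T22 pools, so the ranges overlapped at a ratio of 0.213 (0.151 to 0.298), and without that pool they did not (log2 difference -2.74). In Macro-MKI67 there were 47 UMIs in T22 (2.30 to 17.8 CPM) and 0 in T127, a level at least 13.0-fold lower. Without cells carrying marker genes of other types the T22 level was 2.55 CPM (10 UMIs), close to the T127 floor of 1.78 CPM that a count of 0 in the remaining 81 cells allows. In Macro-others the order was turned around, with 8.90 to 16.5 CPM in T22 and 18.8 to 58.4 CPM in T127 (ratio 2.86, 2.18 to 3.74). That difference reversed to a log2 value of -1.34, with separate ranges, in cells without marker genes of other types.

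Over the 7 labels together, most Il4i1 UMIs lay in cells that also carried mature dendritic cell genes (Ccr7, Fscn1, Ccl22, Ccl17, Cacnb3), but this was not so in every label. Cells with at least 2 of these genes were 1.98% of the 7 labels in T22, 6.64% in T127 and 1.76% in the long-term pools, and held 63.7%, 91.2% and 53.5% of the Il4i1 UMIs. Their Il4i1 level was 474 CPM in T22, 165 CPM in T127 and 221 CPM in the long-term pools, against 9.65, 1.40 and 4.67 CPM in the remaining cells. In CD14-IL1B such cells held 96.8 to 99.5% of the UMIs in the 3 experiments. In Macro-others of T127 they were 35 of 213 cells and held 95.3%, and the summed mature dendritic list of that label was 2083 CPM in T127 and 34.8 CPM in T22. In Macro-M2 of the long-term pools, however, they held 22.4% of the Il4i1 UMIs and in CD16-CDKN1C of T22 39.0%, so that most lay in the remaining cells there. Finding 2 genes is easier in deeper cells, and over the 7 labels the marker-bearing cells carried more UMIs per cell than the rest (median 14319.5 against 5996 in T22, 14550.0 against 10362 in T127 and 10510.0 against 8830.0 in the long-term pools), but in CD14-IL1B of T22 and T127 they carried fewer (17582 against 19864 and 16026 against 16783). Arg1 had the opposite placement, at 2.34 CPM in the mature dendritic marker-bearing cells of T127 and 426 CPM in the remaining cells.

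Kynu, which cleaves kynurenine and its 3-hydroxy form, was lower in T127 in Macro-M2, Macro-MKI67 and CD16-CDKN1C. In Macro-M2 the T22 pools held 8.88, 11.1, 11.3 and 8.67 CPM and the T127 pools 4.43, 5.27, 5.37 and 6.01 CPM, without overlap and with a ratio of 0.533 (0.387 to 0.733). In Macro-MKI67 the ratio was 0.447 (0.276 to 0.703), past 2-fold, but not without T22 pool 1, T22 pool 2 or T127 pool 2 (log2 -0.97, -0.99 and -0.95). Without cells carrying marker genes of other types it was no longer counted (-1.52), whereas Kynu in Macro-M2 came to be 2-fold apart (-1.41 against -0.80). In CD16-CDKN1C pools held 11.8 to 12.5 CPM in T22 and 4.86 to 8.74 CPM in T127. Macro-others, with 13.2 and 16.1 CPM, did not show this order until cells with marker genes of other types were left out (log2 -1.97).

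Kmo, which hydroxylates kynurenine, was highest in pDC, at 305 CPM in the long-term, 307 CPM in T22 (35 cells) and 336 CPM in T127. Among the macrophage labels Macro-others stood out: the T22 pools held 3.57, 6.18, 7.64 and 1.62 CPM and the T127 pools 46.8, 48.8, 49.0 and 67.4 CPM, a ratio of 11.3 (8.35 to 15.3). In cells without markers of other types the levels were 1.62 and 23.5 CPM and the log2 difference was 3.23 instead of 3.24, but the pool ranges then overlapped. That filter does not cover conventional dendritic markers. With cells carrying these left out as well, the log2 difference in Macro-others was 2.62. In CD14-PF4 Kmo was 6.61 CPM in T22 and 42.6 CPM in T127, a ratio of 6.44 (2.48 to 21.2) with separate ranges. Too few UMIs were left there without cells carrying marker genes of other types (log2 2.05 against 2.52). Without conventional dendritic marker-bearing cells as well, the log2 difference was 0.43, again on too few UMIs. In Macro-M2 the levels were 13.1 CPM in T22 (6.68 to 16.8) and 20.5 CPM in T127 (15.8 to 24.6), a ratio of 1.57 (1.26 to 1.95) with overlapping ranges. CD14-IL1B had 66.5 and 114 CPM with separate ranges and a ratio of 1.72 (1.43 to 2.08). In Macro-MKI67 and CD16-CDKN1C the levels overlapped between models, at 24.0 and 28.3 CPM and at 14.6 and 15.0 CPM.

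A gene was counted as 2-fold apart where the log2 difference of CPM + 1 was at least 1, the pool ranges did not overlap and the label held at least 10 UMIs of the gene. By this count 17 of 43 member and label pairs were higher in T127 and 2 were higher in T22, with a median log2 difference of 0.96. In Macro-M2, 3 of 8 members were higher in T127 (Arg1, Slc7a2, Odc1) and 0 in T22, where 6.54% and 6.52% of 12870 genes were. In Macro-MKI67, 3 of 7 were higher in T127 (the same genes) and 2 in T22 (Il4i1, Kynu), beside 6.16% and 6.54% of 11512 genes. In Macro-others, 6 of 7 were higher in T127 (Arg1, Slc7a2, Odc1, Ass1, Il4i1, Kmo) and 0 in T22, beside 8.58% and 7.17% of 12401 genes. In CD16-CDKN1C, 3 of 7 were higher in T127 (Arg1, Slc7a2, Odc1) and 0 in T22, beside 9.20% and 7.96% of 12702 genes. In CD14-IL1B the count was 0 of 7 in each direction, beside 5.80% and 2.64% of 10329 genes, and in CD14-PF4 it was 2 of 7 (Slc7a2, Kmo) and 0, beside 3.24% and 4.00% of 8830 genes. Median log2 differences of the members were 0.78, 0.83, 1.44, 0.47, 0.07 and 1.49 in these labels, in the order given, and those of all genes were 0.0216, 0.0485, 0.0802, 0.157, 0.190 and 0.0260. Without cells carrying marker genes of other types, 10 of the 36 pairs that still held enough UMIs were higher in T127 and 5 in T22, beside 6.03% and 6.61% of all gene and label pairs. Of the 7 pairs lost, Slc7a2 and Kmo in CD14-PF4 no longer held 10 UMIs. Arg1 in the 4 larger labels and Slc7a2 in Macro-M2 and Macro-MKI67 were the only pairs that stayed 2-fold apart under every choice of cells, with any 1 pool left out and with a pseudocount of 10 CPM. That pseudocount by itself left 10 pairs higher in T127 and 0 in T22.

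**Figure D3:**
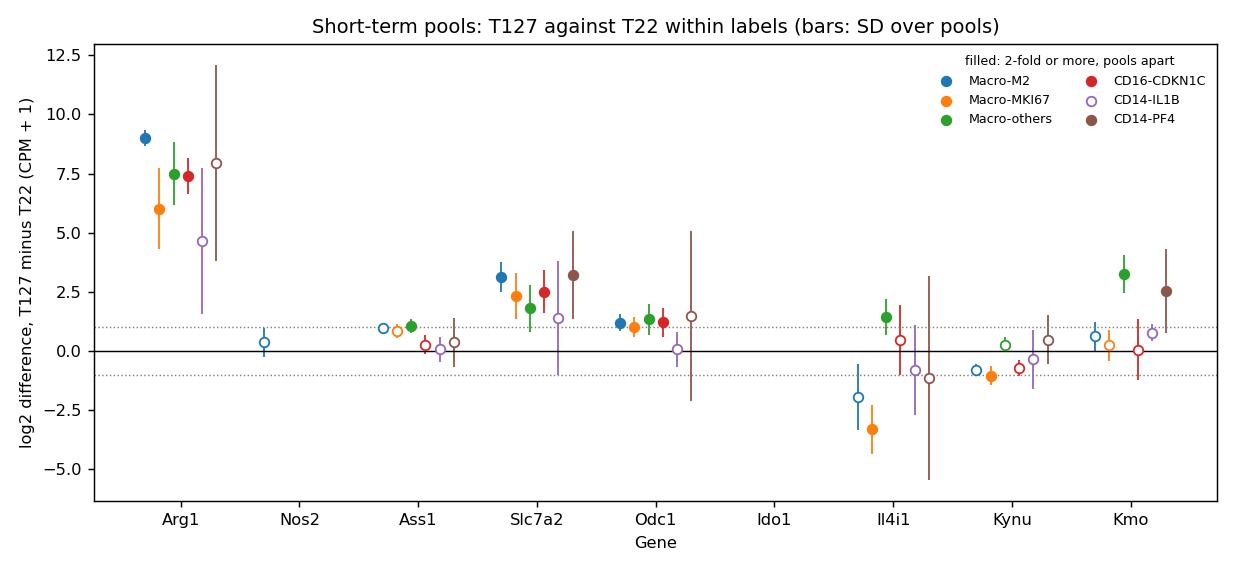
Log2 difference of CPM + 1, T127 minus T22, of the 9 genes in 6 labels; bars show the SD over pools and filled points mark pairs at least 2-fold apart with separate pool ranges, and pairs with under 10 UMIs are not drawn. Arg1 runs from 4.65 in CD14-IL1B, which is not filled, to 9.01 in Macro-M2, Odc1 lies between 1.02 and 1.33 in the 4 larger labels, at 0.07 in CD14-IL1B and at 1.49 in CD14-PF4, and Il4i1 lies on either side of 0.

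The pools of 1 model differed from each other by more than counting error. Over the member and label pairs, a chi-square of pool counts came to 659 on 87 degrees of freedom in T22 and 1017 on 102 in T127. The counting intervals above therefore leave out a part of the spread between pools, which the ranges show.

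A list of 51 further genes of both pathways, all present in the tables, was read with the same count. Over all genes and the 6 labels, 6.80% of gene and label pairs were higher in T127 by this count and 6.00% in T22. For arginine transport and breakdown, 5 of 36 pairs (13.9%) were higher in T127 and 4 (11.1%) in T22. Arg2, the mitochondrial arginase, was higher in T127 in 4 of 6 labels (4.50 and 38.4 CPM in Macro-M2), and Gatm, which makes the creatine precursor from arginine, was lower in 4 (1193 and 407 CPM). For citrulline recycling and nitric oxide, 4 of 46 pairs (8.70%) were higher in T127 and 1 (2.17%) in T22. The 4 were all Gch1, which opens the synthesis of the cofactor tetrahydrobiopterin (47.3 and 129 CPM in Macro-M2). For polyamines, 4 of 63 pairs (6.35%, near the share of all genes) were higher in T127, all of them Smox, the spermine oxidase (48.3 and 130.1 CPM), and 5 (7.94%) were higher in T22, among them 4 of Sat1, which acetylates polyamines (895 and 410.3 CPM). Of the other polyamine genes on the list only Paox passed, higher in T22 in 1 label (Macro-MKI67).

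For tryptophan and kynurenine, 3 of 55 pairs (5.45%, below the share of all genes) were higher in T127 and 7 (12.7%) in T22. The 3 were Slc7a11, a cystine and glutamate exchanger (6.37 and 17.1 CPM in Macro-M2). The 7 included 3 of Haao (18.8 and 7.94 CPM) and 3 of Qprt (1.98 and 0.281 CPM), which carry the kynurenine route on towards nicotinamide nucleotides. Qprt rested on few UMIs, 152 in T22 and 7 in T127 over the 7 monocyte and macrophage labels. For the aryl hydrocarbon receptor, which binds kynurenine among other ligands, 8 of 22 pairs (36.4%) were higher in T127 and 0 in T22. They were Tiparp, a target gene of the receptor, in 4 labels (142 and 342 CPM in Macro-M2), Ahr itself in 3 (43.4 and 114 CPM) and Arnt in 1. The other targets on the list did not pass this count: Ahrr, the repressor of the receptor, was 2-fold apart in 0 of 4 labels (1.28 CPM in T22 and 1.02 CPM in T127 over the 7 labels), Cyp1a1 was at 0, and Cyp1b1 had 1 UMI in T22 and 0 in T127. The median log2 differences of the 5 lists were 0.34, 0.49, 0.23, -0.05 and 0.60, in the order given. Slc3a2, the heavy chain of several amino acid transporters, was over the 7 labels at 257 CPM in the long-term, 247 CPM in T22 and 329 CPM in T127.

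The level of Arg1 in a label reflects a part of its cells. Cells were thinned to 3000 UMIs so that depth could not set the share. In Macro-M2, 29.6% (347 of 1174; exact 95% interval 27.0 to 32.3) of T127 cells then held an Arg1 UMI, 13.4% (470 of 3510; 12.3 to 14.6) of long-term cells and 0.149% (1 of 670) of T22 cells. Before thinning the shares were 35.8%, 16.5% and 0.149%. In CD16-CDKN1C the shares were 17.0%, 5.78% and 0 of 1643, which allows up to 0.183%. Only cells of at least 3000 UMIs could be thinned, in T22 1643 of the 4205 cells of this label. The full T22 label held 10 Arg1 UMIs. T, B and NK labels, taken for comparison, gave 0.296%, 0.873% and 0.448% at median depths of 3459, 3200.0 and 6917 UMIs. The T22 macrophage shares lay at or below the share of these labels. Those of Macro-M2 and CD16-CDKN1C in the other experiments lay above it. In T22, Arg1 was at 2.25 CPM in central memory CD4 T cells against 0.110 CPM in Macro-M2, so these labels are not taken as a background level. The source of their Arg1 UMIs was not tested. By pool, the Macro-M2 share was 25.1 to 32.1% in T127.

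**Figure D4:**
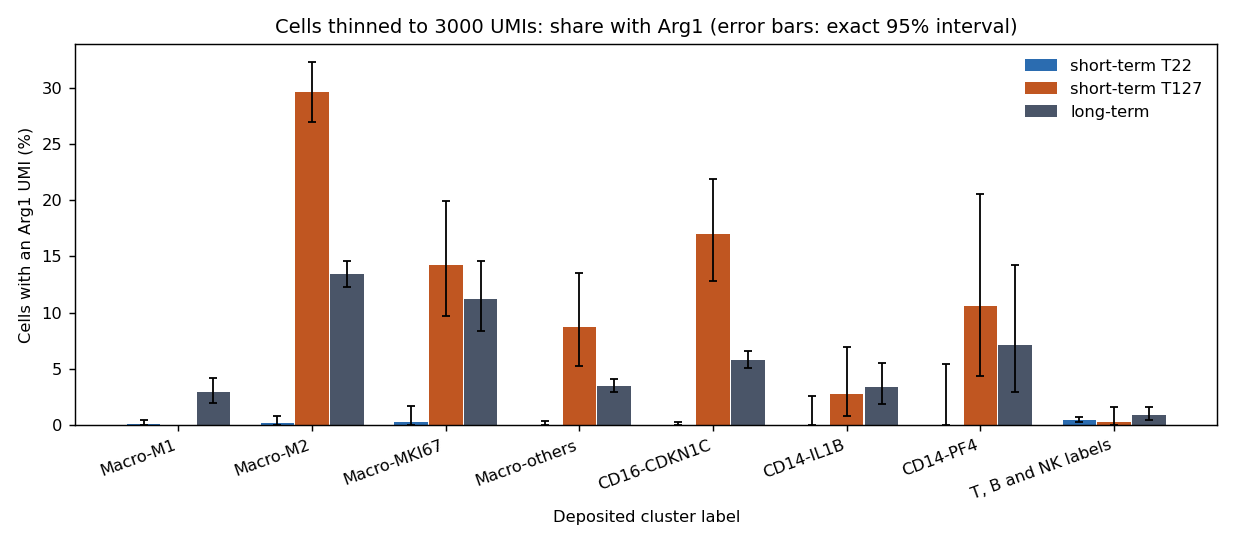
Percent of cells with an Arg1 UMI after thinning to 3000 UMIs, by label and experiment, with exact 95% binomial intervals. T, B and NK labels are drawn for comparison, and Macro-M1 of T127 (3 cells) is not drawn. Macro-M2 stands at 29.6% in T127, 13.4% in the long-term pools and 0.149% in T22.

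Within Macro-M2 the Arg1 UMIs were unevenly held. In the long-term pools the 10% of cells with the most Arg1 UMIs held 96.9% of them, 588 of 3567 cells had any and 306 had at least 10, up to 239 in 1 cell. In T127 the top 10% held 70.3%, and 232 of 420 positive cells had at least 10. Arg1 positive cells were thus a minority of the label in either experiment.

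The long-term pools, which hold both models after 20 days, had Arg1 in every monocyte and macrophage label. The order was Macro-M2 at 390.4 CPM (pool median 391, 133 to 727), Macro-MKI67 at 168, CD16-CDKN1C at 138, CD14-PF4 at 118, Macro-others at 70.1, Macro-M1 at 49.2 and CD14-IL1B at 38.4 CPM, and the pool range of each label overlapped that of the next. A single cell held 38.9% of the UMIs in Macro-M1, 41.1% in CD14-PF4 and 23.8% in CD14-IL1B. Without pools 1 to 3, which share barcodes, Macro-M2 was at 489 and CD16-CDKN1C at 105 CPM. Without cells carrying marker genes of other types Macro-M2 was at 209 CPM, with 2830 of 3567 cells left. Macro-others was then at 39.5, CD14-IL1B at 21.6 and CD14-PF4 at 281 CPM. CD14-PF4 thus came above Macro-M2, on 70 UMIs in the 31 cells left. The neutrophil list of that filter holds S100a8 and Mmp8. In long-term Macro-M2 these were at 699 and 208 CPM with Arg1 and at 77.8 and 14.8 CPM without it. Their part in the lower level was not tested. Slc7a2 ranged from 19.0 CPM in Macro-M2 to 6.40 CPM in CD14-IL1B.

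Nos2, nearly undetected at 4 to 8 days, was found in the long-term pools in Macro-others (7.22 CPM, 2.06 to 21.0) and Macro-M2 (5.07 CPM, 0.161 to 11.6). In Macro-others 1 cell held 65 of the 303 UMIs. Without pools 1 to 3 these levels were 9.72 and 7.64 CPM, and without cells carrying marker genes of other types they were 2.31 and 1.82 CPM. Elsewhere in the 7 labels Nos2 was below 1 CPM. Between long-term labels Ass1 ran from 84.6 to 135 CPM, Odc1 from 8.55 to 15.8 CPM and Kynu from 7.78 to 16.6 CPM. Kmo ran from 1.70 CPM in Macro-M1 to 46.6 CPM in CD14-IL1B and Il4i1 from 1.20 CPM in Macro-MKI67 to 86.5 CPM in CD14-PF4. That last Il4i1 level lay in few cells: 20 of the 98 cells carried mature dendritic genes and held 96.7% of it, and without cells carrying marker genes of other types 0 UMIs were left in 31 cells, which allows up to 12.0 CPM.

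Nos2 and Arg1, although they compete for arginine, were found in the same long-term cells. Of 35 thinned Macro-M2 cells with a Nos2 UMI, 29 also held Arg1 (82.9%, 66.4 to 93.4), against 12.7% (11.6 to 13.8) of the 3475 cells without Nos2, at median depths of 11660.0 and 11246 UMIs. Over all 7 labels the shares were 66.7% (52 of 78) and 6.67%. Read from the other side, Arg1 positive Macro-M2 cells had Nos2 at 31.3 CPM and Slc7a2 at 82.8 CPM, and Arg1 negative cells at 0.768 and 8.53 CPM. Nos2 was higher with Arg1 in 6 of 8 pools and the ranges over pools overlapped (0 to 46.4 and 0.164 to 2.50 CPM), with 32 of the 35 Nos2 positive cells in pools 5 to 8. In each of the 8 pools Slc7a2 was higher in the Arg1 positive cells, with 49.3 to 116 CPM against 4.96 to 13.8 CPM. Odc1 differed little, at 13.7 and 12.4 CPM, and Ass1 was at 71.4 CPM with Arg1 and 108 CPM without it, lower in 7 of 8 pools but with overlapping ranges (33.4 to 150.1 and 53.2 to 157 CPM). In T127 the Ass1 order was the reverse, at 118 and 104 CPM. The tryptophan enzymes lay mostly in the other cells: Kynu at 4.50 and 12.4, Kmo at 1.04 and 5.86, and Il4i1 at 0.865 and 6.57 CPM. Dendritic cell markers moved with this contrast: the conventional list was at 0.865 CPM with and 39.6 CPM without Arg1, and the mature list at 9.16 and 119.6 CPM. Their part in it was not tested.

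In T127 the same split of Macro-M2 gave a smaller ratio for Slc7a2, 31.2 CPM with and 21.0 CPM without Arg1, higher in 4 of 4 pools with separate ranges over pools (25.2 CPM or more with and 24.7 CPM or less without), and a larger one for Kmo, 3.12 and 27.6 CPM. Kynu was at 1.44 and 6.86 CPM. After thinning, 8.07% and 6.05% of these cells held Slc7a2 (5.43 to 11.5 and 4.52 to 7.89), and 0.288% and 6.29% held Kmo (0.00730 to 1.60 and 4.73 to 8.16). Kmo was lower with Arg1 in 4 of 4 pools. The conventional dendritic list was at 16.3 CPM with and 112 CPM without Arg1 in these cells, and the mature list at 40.3 and 481 CPM.

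Marker genes of the long-term Arg1 positive Macro-M2 cells differed from those of the other cells of that label. Chil3, a chitinase-like protein of monocytes and alternatively activated macrophages, was at 6528 CPM with and 139.7 CPM without Arg1, the proteoglycan gene Vcan at 254 and 26.4, and the integrin gene Itgam at 611 and 189 CPM. The complement genes C1qa and C1qb of mature tissue macrophages were lower, at 3358 and 9489.8 and at 2248 and 6475 CPM. The neutrophil list was at 977 CPM with and 213 CPM without Arg1, led by S100a8 (699 and 77.8) and Mmp8 (208 and 14.8). Cxcr2 was at 1.56 and 0.540 CPM. The rest of that list was lower with Arg1: S100a9 (62.4 and 94.0), Retnlg (5.01 and 18.1), Csf3r (1.90 and 7.22) and Ly6g (0 and 0.114 CPM). Summed, the macrophage list was at 7278 and 18340.3 CPM and the monocyte list at 10044 and 2487 CPM. Mertk alone of the macrophage list was higher with Arg1 (54.0 and 37.7 CPM). Most of the monocyte sum with Arg1 was Chil3, while Plac8 (182 and 199), Ly6c2 (106 and 89.2), Ccr2 (38.9 and 27.3) and Cd14 (2324 and 1817 CPM) were nearer to each other. In T127 the C1qa contrast had the same direction (1992 and 4246 CPM), and the monocyte list was at 6334 and 5853 CPM. The neutrophil list had the opposite direction there, at 172 CPM with and 257 CPM without Arg1. These are cells of pooled tumors, so the contrasts are descriptions of the captured cells and were not tested.

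**Figure D5:**
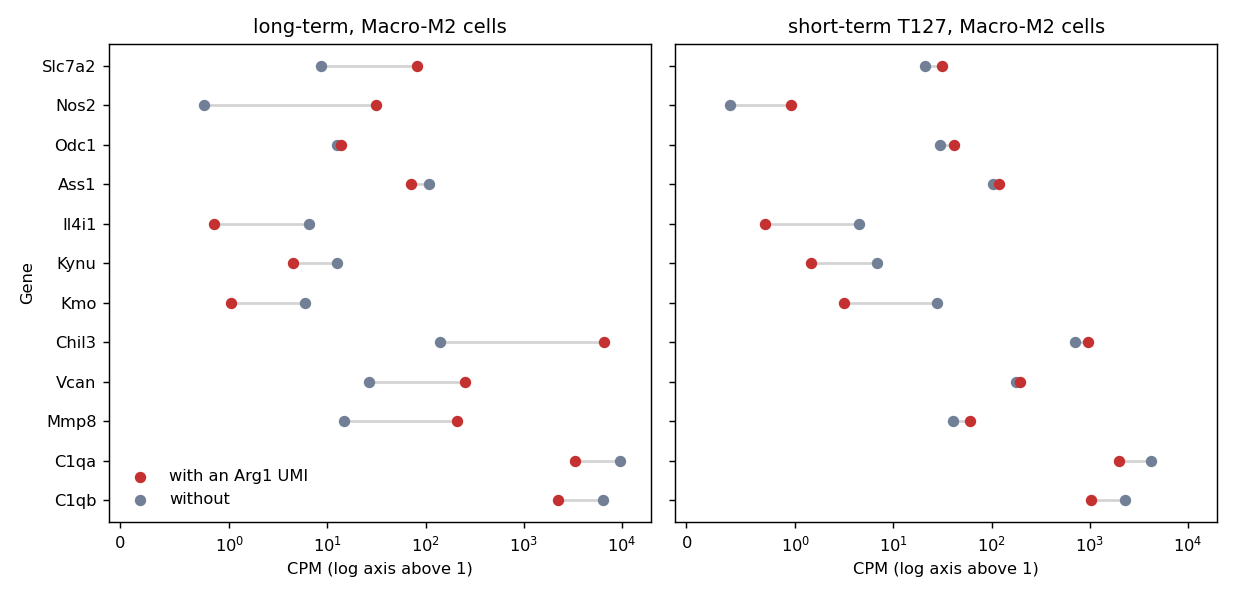
Levels (CPM, axis logarithmic above 1 and linear below) of 7 member genes and 5 marker genes in Macro-M2 cells with and without an Arg1 UMI after thinning to 3000 UMIs, in the long-term and T127 pools. Slc7a2 and Nos2 were higher in the Arg1 positive long-term cells (82.8 and 31.3 CPM against 8.53 and 0.768), and C1qa and C1qb were lower in both experiments.

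Several members split the long-term pools into pools 1 to 4 and pools 5 to 8, between which the labels state no difference. In Macro-M2 Arg1 was at 133 to 301 CPM in pools 1 to 4 and 481 to 727 CPM in pools 5 to 8, and Nos2 at 0.161 to 3.11 and 7.21 to 11.6 CPM. In CD16-CDKN1C the order of Arg1 was opposite, at 152 to 301 and 65.5 to 78.4 CPM. Ass1 was higher in pools 1 to 4 (123 to 147 against 61.1 to 80.6 CPM over the 7 labels), and Odc1 was lower (8.79 to 10.9 against 14.1 to 16.4 CPM). The share of Arg1 positive Macro-M2 cells was 8.06 to 10.9% in pools 1 to 4 and 14.9 to 21.6% in pools 5 to 8. Clusters Malign_0 and Malign_1, the malignant clusters of the T127 pools, made up 64.6 to 70.8% of malignant cells in the 8 pools. This split was noticed in the data, and its source was not tested.

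Across 52 label and experiment groups of at least 50 cells, which share pools and depth, the genes whose levels on the log2 scale were most like a member's were found among 12823 genes. They were Ang4, Ang5 and Folr2 for Arg1 (Pearson r 0.886, 0.879 and 0.868), Mecom, Sncaip and Cacng1 for Nos2 (0.852 to 0.862, each highest in endothelial cells) and Ccl22, Cd40 and Il12b for Il4i1 (0.772 to 0.785). For Kynu they were Cd180, Rnase6 and Ncf1 (0.945 to 0.955) and for Kmo Rnase6, Gapt and Syngr2 (0.910 to 0.930). Ass1 was most like Ebi3, Il1r2 and Ltb4r1 (0.780 to 0.789), Slc7a2 like Psd3, Plxdc2 and Tppp3 (0.833 to 0.845), Odc1 like Nemf, Rab21 and Ubtf (0.781 to 0.816) and Ido1 like Sh3bgr, Paqr5 and Gm29019 (0.670 to 0.719). Within the members, Kynu and Kmo were most alike (0.90), and Arg1 had 0.58 with Ass1 and 0.57 with Slc7a2. Within Macro-M2 of the long-term pools Ang4 and Ang5 were higher in Arg1 positive than in Arg1 negative cells (47.9 and 6.45, and 48.6 and 4.98 CPM), and Folr2 was lower (72.3 and 126 CPM). In T127 each had the other order, with Ang4 at 17.0 and 21.0, Ang5 at 11.7 and 20.2 and Folr2 at 159 and 61.2 CPM.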

How the data were processed

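Tumors were dissociated, dead cells were removed, and tumors labelled with multiplexing oligos were pooled before 10x 3' capture. Per the methods, the authors processed reads in Cell Ranger 6.0.0, counting introns, on mouse build GRCm38, then filtered out cells of few genes or over 20% mitochondrial UMIs and Scrublet doublets, and named clusters from markers. The deposited tables hold raw UMI counts of 32285 genes per cell beside the cluster label. A normalized table of the same cells was not used. The labels name a human organism, although the tissue and build are mouse.

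Counts were summed per label, experiment and pool with Python 3.11.15, numpy 2.4.6, scipy 1.17.1 and pandas 2.3.3 and divided by all UMIs of those cells. Shared barcodes of long-term pools were kept once, at the deepest copy. Labels with at least 50 cells in each model were compared. Levels have exact Poisson, ratios exact conditional binomial and shares Clopper-Pearson 95% intervals, which cover counting error only. A count of 0 was bounded at 3 counts. Doublets were not called again. The members, pathway list, marker lists and alternatives were chosen with earlier results of these data known. Pathway genes were named with values when 2-fold apart in 3 or more labels or highest in their group (a rule for naming only, since CPM of different genes are not compared), and the 3 most similar genes were named for each member. On simulated data for Macro-M2 the comparison recovered 100.0% of 200 genes changed 4-fold among 13037 and called 0.0234% of unchanged genes. The simulated pools differed by counting error only, and no gene of low level was changed. The real pools differed by more, so these rates do not carry over to them.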

Additional observations from a re-analysis of the deposited data

Results flagged for a closer look

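In 82 groups of pools, the highest or lowest pool was compared with its nearest neighbor by Dixon's gap ratio, which chance exceeds in about 1 in 20 groups, and 9 pools stood apart. Among the long-term pools these were pool 5 for Arg1 in Macro-MKI67 (513 CPM, next 209), pool 7 for Nos2 in Macro-others (21.0, next 9.66; 1 cell of that label held 65 UMIs), pool 8 for Il4i1 in Macro-M2 (11.6, next 7.44), pool 2 for Il4i1 in Macro-others (23.0, next 11.2), pool 1 for Kynu in Macro-M2 (15.3, next 11.8) and, on the low side, pool 8 for Kynu in Macro-others (11.9, next 15.0). In T22, pool 1 was high for Ass1 in Macro-M2 (65.0 CPM, next 53.1) and in CD14-IL1B (142, next 79.3). In T127, pool 4 was high for Kmo in Macro-others (67.4 CPM, next 49.0).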

How the results depend on the processing

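No paired analysis was possible because the comparison of the models comes from no test and they share no pool; cells with and without Arg1 were compared within pools as a description. The 17 of 43 member and label pairs higher in T127 became 10 of 36 with enough UMIs without cells carrying marker genes of other cell types and 10 of 32 when cells with conventional dendritic markers, an alternative added after seeing the data, were left out as well; the 2 pairs higher in T22 became 5 and 5. All gene and label pairs higher in T127 went from 6.80% to 6.03% and 6.51%, and those higher in T22 from 6.00% to 6.61% and 7.26%. Slc7a2 and Kmo in CD14-PF4 fell out for too few UMIs. A fold of 1.5 gave 20 and 4 pairs and disregarding pool ranges 21 and 4. Leaving out 1 pool gave 14 to 17 and 1 to 3 pairs. A pseudocount of 10 CPM gave 10 and 0: it ended Odc1 in 4 labels (0.81 to 0.97), Ass1, Slc7a2 and Il4i1 in Macro-others (0.92, 0.84 and 1.00) and Il4i1 and Kynu in Macro-MKI67 (-0.92 and -0.56). The other settings gave 15 to 17 and 2. Under the marker filters Il4i1 in Macro-others reversed from a log2 difference of 1.44 to -1.34 and -1.22, and Kynu there, which was not 2-fold apart, went from 0.27 to -1.97 and -2.26; the cause was not tested. Of 344 differences with a pool left out, 343 moved by less than 1 SD over pools, and Arg1 in CD14-IL1B moved without T127 pool 1. Of 301 under other settings, 263 stayed within 1 SD and 36 moved. All 400 long-term levels with a pool left out stayed within 1 SD over pools, and 18 of 350 under other settings moved. Leaving out 1 pool shifts a mean by only a part of the SD over those same pools. The counts with a pool left out could therefore hardly come out otherwise and are no measure of stability. At full depth 15.0% instead of 12.7% of Nos2 negative cells held Arg1. After thinning, the top 10% of cells held 96.4% instead of 96.9% (long-term) and 68.6% instead of 70.3% (T127) of Arg1 UMIs. Nos2 and Ido1 held too few UMIs at 4 to 8 days for a fold in most labels.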

Other observations

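Outside the myeloid labels, Nos2 in endothelial cells was at 14.6 CPM in T22 and 69.8 CPM in T127. The Il4i1 level of long-term B cells was 136 CPM, the highest of the 21 labels ranked there, and regulatory T cells had the highest long-term levels of Ass1 (197 CPM) and Odc1 (94.1 CPM), each with a pool range that overlapped the next label.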
